A study of Mus musculus with 2 samples.

Results

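The CXCR3 and CXCR6 chemokine axes were followed through the immune cells of mouse liver metastases. The genes were the CXCR3 ligands Cxcl9 (ENSMUSG00000029417) and Cxcl10 (ENSMUSG00000034855), their receptor Cxcr3 (ENSMUSG00000050232), the CXCR6 ligand Cxcl16 (ENSMUSG00000018920) and its receptor Cxcr6 (ENSMUSG00000048521). They were chosen by symbol and are 5 of the 56941 features in each of the 2 libraries. Each symbol had 1 row.

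CXCL9 and CXCL10 are secreted chemokines that myeloid and stromal cells make in response to interferon, and they draw CXCR3-bearing T and NK cells into inflamed tissue and tumors. CXCL16 is made as a membrane-bound chemokine by macrophages, dendritic cells and liver sinusoidal endothelium and can be shed by the proteases ADAM10 and ADAM17. Its receptor CXCR6 is carried by effector, exhausted and tissue-resident T cells and by NKT cells, which patrol the liver sinusoids.

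Cells positive for CD45, the pan-leukocyte surface protein encoded by Ptprc, were taken from liver lesions of C57BL/6 mice that had received MC38-LM3b cells by intrasplenic injection. MC38-LM3b is a liver-metastatic derivative of the mouse colorectal cancer line MC38. The tumor cells carried a scrambled hairpin (shScramble, Ctrl) or one against SLAMF3, the receptor encoded by Ly9 (shSLAMF3, KD), and the mice themselves were not altered. The mice were 6 to 8 weeks old, livers were taken 2 weeks after injection, and lesions of 3 mice were pooled for each library. With 1 library per group there was no replicate error and no test. Every interval below is a 95% interval that covers counting error only, and a difference between the libraries cannot be told apart from a difference between the 2 pools of mice or the 2 preparations.

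Filtering kept 9814 cells in Ctrl and 10185 in KD, in which the median depth was 5412 and 4989 UMIs (unique molecular identifiers, 1 per captured transcript). 24 barcodes occurred in both libraries. Macrophages, with monocytes included, numbered 3096 in Ctrl and 2551 in KD, CD8+ T cells 2573 and 1009, and granulocytes 808 and 2340. Cells that could be given no class made up 17.9% of Ctrl and 9.61% of KD cells. A cluster led by Slc8a1 and Cadm1 held most of them in Ctrl (964 cells, median 2594 UMIs). The class labels followed their defining markers: C1qa was at 2418 and 2244 counts per 1000000 UMIs (CPM) in macrophages against 21.3 and 21.1 in CD8+ T cells, and Cd3e was at 455 and 381 CPM in CD8+ T cells against 4.39 and 1.39 in macrophages. Endothelial cells and tumor cells or fibroblasts were also present, with Ptprc at 98.4 and 121 CPM in the former against 931 and 1067 in CD8+ T cells. Ly9 had 12 and 7 UMIs in the tumor cells or fibroblasts, too few to check the hairpin.

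Cxcl9 and Cxcl10 lie close together in the mouse genome, with Art3 between them among the protein-coding genes of the RefSeq annotation of GRCm38.p6. Their upstream sequences are shown because the 2 ligands moved together in most producing cells below. The 250 bases before each RefSeq transcription start are given 5′ to 3′ on the gene's own strand (minus for both), at chr5:92328080-92328329 for Cxcl9 and chr5:92348890-92349139 for Cxcl10 of GRCm38.p6. Capitals mark matches to the motifs named after the sequences.
Cxcl9: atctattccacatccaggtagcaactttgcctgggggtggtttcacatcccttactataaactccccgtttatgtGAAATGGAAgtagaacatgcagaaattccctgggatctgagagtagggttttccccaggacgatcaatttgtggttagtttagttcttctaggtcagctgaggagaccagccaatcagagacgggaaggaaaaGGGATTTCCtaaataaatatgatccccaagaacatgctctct
Cxcl10: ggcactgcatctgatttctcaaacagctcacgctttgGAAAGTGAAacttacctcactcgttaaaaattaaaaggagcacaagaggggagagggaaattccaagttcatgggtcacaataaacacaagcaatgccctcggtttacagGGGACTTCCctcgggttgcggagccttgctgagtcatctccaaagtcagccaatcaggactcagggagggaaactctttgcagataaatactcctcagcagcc

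Both sequences held GAAANNGAA, a shortened form of the interferon-stimulated response element, and GGGANTTCC, a form of the NF-kappaB motif. In Cxcl9 these were GAAATGGAA, starting 175 bases before the transcription start, and GGGATTTCC, starting 42 bases before it. In Cxcl10 they were GAAAGTGAA, starting 213 bases before the start, and GGGACTTCC, starting 103 bases before it. Of the 32851 promoter windows of 300 bases in the RefSeq table (250 before and 50 after the start), 8.56% held the former motif and 1.68% the latter. The windows of both ligands held no match to the gamma-activated site TTCNNNGAA (8.3% of windows) or to the T-box motif AGGTGTGA (1.28%), and those of Cxcr3 and Cxcr6 held none of the 4. No window was available for Cxcl16, so its promoter was not searched. All motifs were searched on both strands, none of the matches overlapped, and the NF-kappaB form was set after the sequences had been seen. A match describes the letters only.

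Cxcl9 was highest in macrophages in both libraries and was lower in KD in nearly every cell type that made it. In macrophages it stood at 1570 CPM in Ctrl (35777 UMIs) and 608 CPM in KD (13087 UMIs), a log2 ratio of KD over Ctrl of -1.37 (-1.40 to -1.34). Macrophages supplied 80.7% of all Cxcl9 UMIs in Ctrl and 75.2% in KD, from 35.5% and 34.9% of all UMIs. A cell class was counted as changed when the level moved by at least 2-fold with at least 50 UMIs over both libraries. Among the 12790 genes that reached 50 UMIs in macrophages, 2.81% were lower and 2.37% higher by that measure.

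In Kupffer cells, the resident macrophages of the liver, Cxcl9 was 1074 CPM in Ctrl and 531 CPM in KD (log2 ratio -1.01, -1.23 to -0.81). In cDC1, the cross-presenting dendritic cells, it went from 674 to 129 CPM (-2.39, -2.70 to -2.09), which was the lowest ratio of Cxcl9 among the 11 cell types with at least 50 UMIs. In cDC2 it went from 468 to 210 CPM (-1.15, -1.36 to -0.95) and in migratory DC from 608 to 213 CPM (-1.52, -2.03 to -1.02). In Ctrl the order was therefore macrophages, Kupffer cells, cDC1, migratory DC and cDC2, of which cDC1 and migratory DC, and migratory DC and cDC2, did not differ beyond their intervals. In KD the interval of cDC1 (107 to 153 CPM) lay below those of cDC2 and migratory DC.

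Of these 11 cell types, 8 were past 2-fold lower for Cxcl9 and none was past 2-fold higher, where the share of all genes past 2-fold lower ran from 1.35% to 6.14% over the same types. That share was 3.06% in Kupffer cells, 1.88% in cDC1, 1.87% in cDC2, 4.08% in migratory DC, 1.82% in plasmacytoid dendritic cells, 2.33% in endothelial cells, 5.68% in tumor cells or fibroblasts, 1.79% in CD8+ T cells and 1.35% in B cells. Endothelial cells missed the limit, at 350 CPM in Ctrl and 176 CPM in KD (-0.99, -1.16 to -0.81). Without those that held a C1qa, C1qb or C1qc UMI, only 55 of 150 Ctrl and 255 of 646 KD endothelial cells were left. In these the levels were 423 and 137 CPM, past 2-fold lower (-1.62, -1.95 to -1.30). Tumor cells or fibroblasts had 53.7 and 42.9 CPM (-0.32, -0.82 to 0.15) and plasmacytoid dendritic cells 46.9 and 73.0 CPM (0.64, -0.17 to 1.47), and both intervals held 0. The 8 types past 2-fold lower included CD8+ T cells and B cells (50.4 and 12.5 CPM in B cells). How much of the Cxcl9 in B cells was background was not tested. The 8 types are therefore not a count of separate producers.

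In CD8+ T cells, which are not a known source of CXCL9, it was 14.4 and 5.22 CPM in the 2 libraries, so the background of Cxcl9 in other cells was itself lower in KD (-1.46, -1.96 to -0.99). The level in macrophages stood far above it in both libraries. Cxcl9 was detected in 77.9% of Ctrl and 43.9% of KD macrophages (median depth 6392 and 7817 UMIs), against 11.0% and 3.67% of CD8+ T cells (7411 and 6934 UMIs). With every cell thinned to 1500 UMIs, these shares were 62.6% and 29.1% in macrophages and 2.39% and 1.20% in CD8+ T cells. The lower level thus came with fewer macrophages holding any Cxcl9 transcript, while those that held one had a mean of 14.8 UMIs in Ctrl and 11.7 in KD. The tenth of macrophages with the most Cxcl9 held 40.5% of its UMIs in Ctrl and 63.1% in KD.

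**Figure D1:**
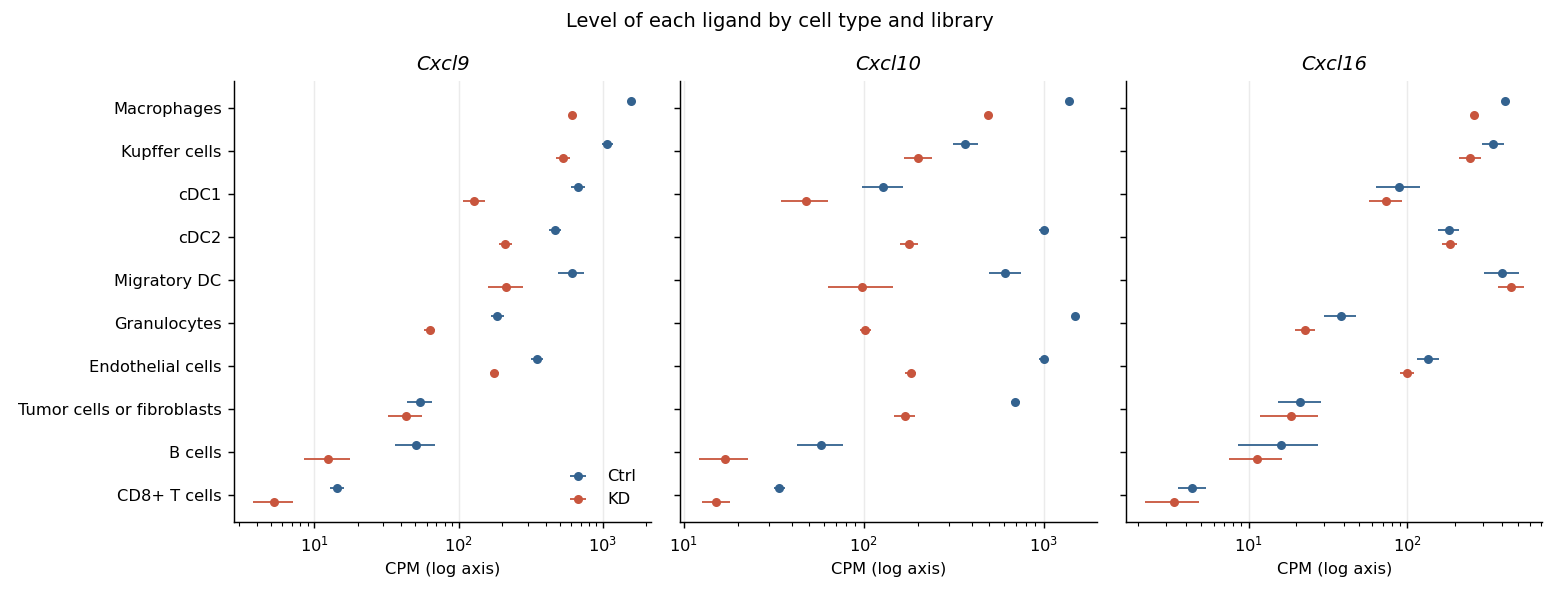
Levels of Cxcl9, Cxcl10 and Cxcl16 (x axes, CPM, log axes) in 10 cell types (y axis), with Ctrl in blue and KD in red; points are sums over the cells of 1 library and bars are 95% Poisson intervals. Macrophages sit highest for Cxcl9 in both libraries (1570 and 608 CPM), and granulocytes show the widest gap for Cxcl10 (1493 and 102 CPM).

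A smaller share of Cxcl10 UMIs than of Cxcl9 UMIs lay in macrophages in both libraries. In macrophages it was 1383 CPM in Ctrl (31522 UMIs) and 491 CPM in KD (10563 UMIs), a log2 ratio of -1.50 (-1.53 to -1.46), and macrophages supplied 72.1% and 68.7% of its UMIs. It was detected in 70.3% of Ctrl and 37.0% of KD macrophages, or 49.5% and 22.4% after thinning, against 17.5% and 9.32% of CD8+ T cells (4.43% and 2.20% after thinning). Of the 15 cell types with at least 50 UMIs, 13 were past 2-fold lower in KD, where the share of all genes past 2-fold lower in these types ran from 0.879% to 6.14%. Among the lymphocytes not given above, that share was 0.879% in CD4+ T cells, 1.71% in regulatory T cells, 1.04% in naive-like T cells, 1.41% in NK cells and 3.72% in Zbtb16+ Il4+ lymphocytes. The 13 types included lymphocytes far below macrophages, such as NK cells (63.1 and 29.6 CPM) and B cells (57.8 and 16.9 CPM). CD4+ T cells went the other way. How much of the Cxcl10 in lymphocytes was background, as described for Cxcl9 in CD8+ T cells, was not tested. The 13 types are therefore not a count of separate producers.

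Granulocytes showed the widest difference of any member in any cell type with at least 50 UMIs. Their Cxcl10 level was 1493 CPM in Ctrl (3020 UMIs in 808 cells) and 102 CPM in KD (832 UMIs in 2340 cells), a log2 ratio of -3.87 (-3.98 to -3.76), or 14.6-fold. As a fraction of all UMIs, this level lay above that of macrophages in Ctrl, and in KD below those of macrophages, Kupffer cells, endothelial cells and cDC2. The share of Ctrl cells with a Cxcl10 UMI after thinning was nevertheless lower in granulocytes than in macrophages. Of the 7869 genes tested in granulocytes, 6.14% were past 2-fold lower. Cxcl10 was detected in 39.5% of Ctrl and 8.25% of KD granulocytes, and in 35.1% and 4.50% after thinning, although KD granulocytes were the deeper cells (2846 against 2170 UMIs). The macrophage marker list summed to 3458 CPM in Ctrl and 4002 CPM in KD granulocytes, with 10 of 12 genes higher in KD and none at 0. Without granulocytes holding a C1qa, C1qb or C1qc UMI (487 Ctrl and 1579 KD cells left) the level was 1587 and 89.9 CPM (-4.14).

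The granulocytes fell into 3 clusters, and Cxcl10 was lower in KD in each. In the largest, led by Hcar2 and G0s2 (731 Ctrl and 1609 KD cells), it went from 1716 to 134 CPM (-3.67, -3.81 to -3.54), and in the smallest, led by Gdf15 and Ly6g (31 and 126 cells), from 1408 to 242 CPM (-2.54, -2.80 to -2.28). In the cluster of immature cells led by Ngp, Camp and Ltf it went from 145 to 19.0 CPM (-2.93, -3.55 to -2.29), although only 46 Ctrl cells were in it. Cxcl9 was 156 and 31.3 CPM in the largest of these clusters (-2.32, -2.64 to -2.01) and 20.1 and 31.3 CPM in the immature one, where 5 Ctrl UMIs gave an interval that held 0 (-0.63 to 2.29). In the smallest cluster Cxcl9 was highest, at 626 and 316 CPM, and the difference fell short of 2-fold (-0.98, -1.29 to -0.67). That cluster held 285 of the 511 Cxcl9 UMIs of KD granulocytes. Cxcl16 was also past 2-fold lower in the largest cluster, at 26.6 and 9.69 CPM (-1.46, -2.12 to -0.80).

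The dendritic and non-immune sources of Cxcl10 also stood lower in KD. In cDC2 it was 1004 and 179 CPM (-2.49, -2.68 to -2.30), in migratory DC 614 and 98.4 CPM (-2.64, -3.34 to -1.99) and in cDC1 128 and 47.7 CPM (-1.42, -2.01 to -0.84). In endothelial cells it was 1000 and 182 CPM (-2.46, -2.59 to -2.32), where the macrophage marker list summed to 2775 and 3645 CPM with 11 of 12 genes higher in KD. Leaving out endothelial cells with a C1qa, C1qb or C1qc UMI (55 Ctrl and 255 KD cells left) gave 759 and 118 CPM (-2.69). In tumor cells or fibroblasts Cxcl10 was 698 and 169 CPM (-2.05, -2.26 to -1.84). Kupffer cells were the producers with the smallest difference, at 368 and 201 CPM (-0.87, -1.22 to -0.52).

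The 2 CXCR3 ligands were not made in fixed proportion. There were 1.13 Cxcl9 UMIs for each Cxcl10 UMI in Ctrl macrophages and 1.24 in KD macrophages, but 0.124 and 0.614 in granulocytes, 0.35 and 0.968 in endothelial cells and 5.27 and 2.70 in cDC1. Because Cxcl10 differed more than Cxcl9 in granulocytes, endothelial cells and cDC2, its proportion was lower there in KD, and the opposite held in cDC1. In single macrophages the 2 transcripts were found together in 58.1% of Ctrl and 22.1% of KD cells, where shares of each transcript drawn independently would give 54.8% and 16.2%. After thinning these were 34.7% and 10.9% against 31.0% and 6.53%.

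**Figure D2:**
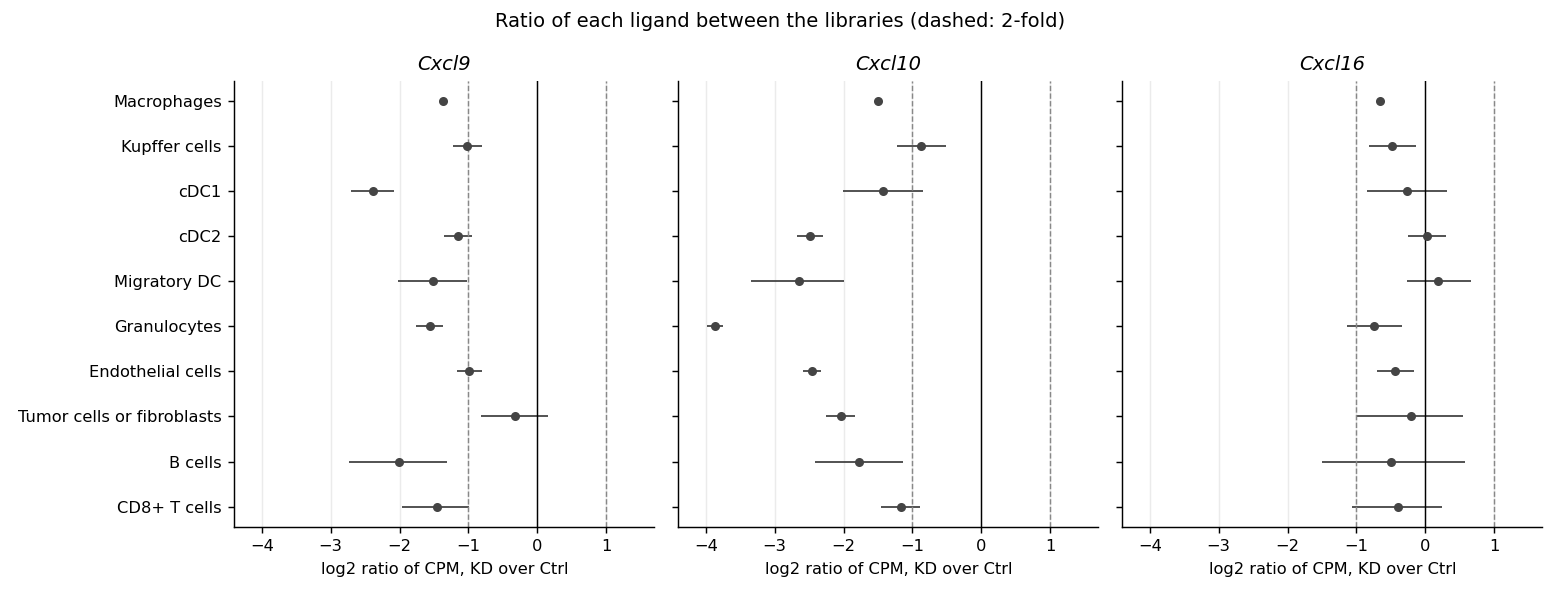
Log2 ratio of KD over Ctrl (x axes) for the 3 ligands in 10 cell types (y axis), with 95% counting intervals and dashed lines at 2-fold. Cxcl10 lies furthest to the left in granulocytes (-3.87), whereas no point of Cxcl16 passes 2-fold (lowest -0.74).

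Cxcl16 differed less than Cxcl9 and Cxcl10 in macrophages. In macrophages it was 413 CPM in Ctrl (9420 UMIs) and 263 CPM in KD (5663 UMIs), a log2 ratio of -0.65 (-0.70 to -0.60) that did not reach 2-fold. It was detected in 71.6% and 59.9% of macrophages, or 37.8% and 26.1% after thinning, against 3.54% and 2.58% of CD8+ T cells (0.823% and 0.4% after thinning). In Kupffer cells it was 349 and 251 CPM (-0.48, -0.81 to -0.14), in endothelial cells 136 and 100.1 CPM (-0.44, -0.71 to -0.17) and in granulocytes 38.1 and 22.8 CPM (-0.74, -1.13 to -0.34). Without endothelial cells that held a C1qa, C1qb or C1qc UMI (55 Ctrl and 255 KD cells left), Cxcl16 was 149 and 92.1 CPM there (-0.69, -1.18 to -0.19).

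In the dendritic cells the level of Cxcl16 was 183 and 185 CPM in cDC2 (0.02, -0.26 to 0.30), 397 and 453 CPM in migratory DC (0.19, -0.27 to 0.66) and 88.9 and 73.6 CPM in cDC1 (-0.27, -0.85 to 0.32), and all 3 intervals held 0. Migratory DC and macrophages did not differ beyond their intervals in Ctrl, and migratory DC had the higher level in KD. None of the 9 cell types with at least 50 UMIs was past 2-fold for Cxcl16 in either direction, where 5.18% of the genes tested in macrophages were.

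Macrophages were divided into sub-clusters without the member and pathway genes, and both ligands of CXCR3 were lower in KD within each of the 6 sub-clusters that had over 100 cells in both libraries. In the cells led by Ccl8 and Mmp12, which held 5 of the 6 markers of C1q-high macrophages (362 Ctrl and 593 KD cells), Cxcl9 was 1688 and 843 CPM, at the 2-fold limit (interval -1.06 to -0.95), and Cxcl10 467 and 355 CPM (-0.40, -0.49 to -0.30). In the cells led by the heat shock genes Hspa1a and Hspa1b (990 and 563 cells) Cxcl9 was 1644 and 1096 CPM (-0.58, -0.63 to -0.54) and Cxcl10 1392 and 628 CPM (-1.15, -1.21 to -1.09). Cxcl16 was 532 and 402 CPM in the former (-0.40, -0.49 to -0.31) and 430 and 393 CPM in the latter (-0.13, -0.22 to -0.04).

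The inflammatory cells led by Il1a, Cxcl1 and Il6 (462 and 332 cells) had the highest Cxcl10 level of all macrophage sub-clusters in both libraries, 2975 and 1161 CPM (-1.36, -1.42 to -1.30). Their Cxcl9 was 1748 and 386 CPM (-2.18, -2.27 to -2.08). Cells led by Ifitm1 and Selenom (451 and 104 cells) had the highest Cxcl9 level, 2038 and 1472 CPM (-0.47, -0.57 to -0.37), whereas their Cxcl10 was 1341 and 391 CPM (-1.78, -1.97 to -1.59). Cycling macrophages (432 and 124 cells) had Cxcl9 at 1559 and 617 CPM (-1.34, -1.43 to -1.24) and Cxcl10 at 1007 and 553 CPM (-0.86, -0.97 to -0.76). The 2 ligands thus did not follow each other between sub-clusters: Cxcl9 differed more than Cxcl10 in the Ccl8, Mmp12, the Il1a, Cxcl1 and the cycling cells, and less in the Hspa1a, Hspa1b and the Ifitm1, Selenom cells.

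The monocytes led by Vcan and Chil3 (354 and 412 cells) made little Cxcl9 for their Cxcl10. Their Cxcl9 was 206 and 45.0 CPM (-2.19, -2.49 to -1.90) and their Cxcl10 1532 and 323 CPM (-2.25, -2.36 to -2.14), while Cxcl16 was 32.3 and 20.2 CPM (-0.68, -1.22 to -0.13). A further sub-cluster, led by Ltc4s and Fabp7, held 11 Ctrl and 354 KD cells. It was poor in Cxcl9 in both libraries (49.6 and 31.2 CPM, interval of the log2 ratio -2.08 to 1.23) and had Cxcl10 at 410 and 81.4 CPM (-2.33, -2.86 to -1.76).

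The makeup of the macrophages also entered the ligand levels. The Ccl8, Mmp12 cells were 11.7% of Ctrl and 23.2% of KD macrophages, and the Ifitm1, Selenom cells 14.6% and 4.08%, so that the former supplied 16.3% of macrophage Cxcl9 in Ctrl and 37.4% in KD. With the sub-cluster sizes of Ctrl and the levels of KD, the log2 ratio in macrophages was -0.94 for Cxcl9, -1.25 for Cxcl10 and -0.40 for Cxcl16, so that Cxcl9 no longer passed 2-fold and Cxcl10 did. With the finer sub-clusters of resolution 1.0 these values were -0.77, -0.98 and -0.34, and then neither CXCR3 ligand passed 2-fold. With the levels of Ctrl and the sizes of KD the log2 ratio was -0.33, -0.22 and -0.29. Leaving out the sub-clusters with over 90% of their cells from 1 library gave -1.15 for Cxcl9 and -1.30 for Cxcl10.

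The granulocyte marker list summed to 337 CPM in Ctrl and 1189 CPM in KD macrophages, with 11 of 13 genes higher in KD and none at 0. Without macrophages that held an S100a8 or S100a9 UMI (2474 Ctrl and 828 KD cells left), the log2 ratio was -1.25 for Cxcl9, -1.49 for Cxcl10 and -0.51 for Cxcl16.

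Other genes of the interferon pathway were lower along with the ligands in macrophages. Among the listed genes of interferon-gamma and its signalling, those past 2-fold lower included Ifng itself (3.29 and 0.975 CPM), the transcription factor Irf1 (351 and 155 CPM, -1.18) and the feedback inhibitor Socs1 (100.3 and 33.1 CPM), and none was past 2-fold higher. Ifng was far below its level in CD8+ T cells (458 and 357 CPM), and the T cell marker list in macrophages moved with it, from 39.9 to 16.2 summed CPM with 1 of 10 genes higher in KD and none at 0, and its part in the Ifng difference was not tested. The receptor chain Ifngr1 was the highest ratio of this list (153 and 299 CPM, 0.96). Of 13 tested interferon-gamma-induced genes, 6 were past 2-fold lower, from Gbp4 (166 and 55.7 CPM, -1.58) to Ciita at the other end (91.1 and 86.0 CPM, -0.08), with a median of -0.88. Of 10 genes induced by type I interferon, 3 were past 2-fold lower, Isg15 (-1.28), Rsad2 (-1.11) and Mx1 (-1.07), with a median of -0.87. The median over all 12790 genes tested was 0.0034, and 2.81% of them were past 2-fold lower.

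In granulocytes the same lists moved further. Of 13 interferon-gamma-induced genes 12 were past 2-fold lower, with a median of -2.25, and of 9 genes induced by type I interferon all 9 were, with a median of -2.05, beside a median of 0.13 over all genes tested. The share of all genes past 2-fold lower there was 6.14%. The guanylate-binding protein gene Gbp4 had the lowest ratio (153 and 11.8 CPM, -3.70), close to that of Cxcl10, and Ciita was the exception (7.91 and 10.7 CPM, 0.44). In cDC1, cDC2 and migratory DC summed, 6 of 13 interferon-gamma-induced genes were past 2-fold lower, with a median of -0.76, where 1.5% of the 7254 genes tested were.

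Among the 6 partners of the axes, 1 was past 2-fold lower in macrophages and 2 were higher, where 2.81% and 2.37% of all genes tested were. Cxcl11, a further gene of the CXCR3 ligands, is given as a transcript only, because CXCL11 protein was not measured. It was 58.1 and 17.3 CPM in macrophages (-1.75), 57.8 and 3.69 CPM in granulocytes (-3.97) and 80.0 and 17.2 CPM in cDC2 (-2.22). Pf4, which encodes the platelet chemokine CXCL4, went the other way in macrophages (44.5 and 257 CPM, 2.53), and so did Ackr3, a scavenger receptor of CXCL11 and CXCL12 (0.746 and 2.46 CPM, 1.72). A small macrophage sub-cluster led by Pf4 and Ltc4s held 1 Ctrl and 52 KD cells. The proteases that shed CXCL16 were 113 and 165 CPM for Adam10 (0.54) and 160 and 150 CPM for Adam17 (-0.09) in macrophages, and neither passed 2-fold.

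The receptors were found in lymphocytes and, for Cxcr3, also in some dendritic cells. Cxcr3 was sparse. In Ctrl it was 62.3 CPM in CD4+ T cells, 43.1 in naive-like T cells, 39.8 in regulatory T cells, 38.8 in plasmacytoid dendritic cells, 20.5 in NK cells and 10.8 in CD8+ T cells, against 0.395 in macrophages. The interval of CD8+ T cells (9.46 to 12.3 CPM) lay below those of the 4 highest types, which did not differ from each other beyond their intervals.

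In CD8+ T cells Cxcr3 was 10.8 CPM in Ctrl (238 UMIs in 2573 cells) and 26.2 CPM in KD (211 UMIs in 1009 cells), a log2 ratio of 1.28 (1.01 to 1.55). Of the 11929 genes tested there, 1.2% were past 2-fold higher. It was detected in 7.77% of Ctrl and 14.9% of KD cells, against 0.291% and 0.392% of macrophages. After thinning, the shares were 2.27% (1.73 to 2.93) and 3.50% (2.45 to 4.84) in CD8+ T cells and 0.0327% and 0.0396% in macrophages, and the log2 ratio was 0.78. Averaging cells equally gave 0.99, so the 2-fold limit was passed when UMIs were summed and missed under these 2 treatments.

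The difference was not even among CD8+ T cells. In cycling cells led by H2ac24 and H1f5 (706 and 314 cells) Cxcr3 was 7.08 and 25.9 CPM (1.87, 1.41 to 2.34). In cells led by Ccl5 and Gzmk (648 and 366 cells) it was 30.1 and 45.7 CPM (0.60, 0.13 to 1.07), in cells led by Spp1 and Serpine2 (1008 and 265 cells) 6.07 and 9.77 CPM (0.69, -0.11 to 1.44), and in the small group led by Nrn1 and Plxdc2, with the lymphoid homing receptor Ccr7 among its leading genes, 54.2 and 48.4 CPM (-0.17, -1.18 to 0.79). Cells with UMIs of the exhaustion markers Pdcd1 and Havcr2 had 6.61 and 10.8 CPM (0.70, 0.16 to 1.23), while cells with Tcf7, which marks stem-like and memory T cells, and without Havcr2 had 55.6 and 71.6 CPM (0.36, -0.16 to 0.89). Cells with no UMI of Pdcd1, Havcr2 or Tcf7 had 27.4 and 56.3 CPM (1.04, an interval above 0). Cxcr3 was thus higher in the Tcf7-bearing cells than in those with exhaustion markers in both libraries. With the sub-cluster sizes of Ctrl the log2 ratio over all CD8+ T cells was 1.06, and with only the sizes changed it was 0.32.

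The NK cell marker Ncr1 moved with Cxcr3 in CD8+ T cells, from 0.408 CPM (9 UMIs) to 15.8 CPM (127 UMIs). Without cells that held an Ncr1 or Klrb1c UMI, Cxcr3 was 10.8 and 24.9 CPM (1.20, 0.92 to 1.48). The granulocyte marker list also moved, from 84.0 to 191 summed CPM with 10 of 13 genes higher and none at 0, and its part in the result was not tested.

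Other Cxcr3-bearing cells gave smaller counts. Zbtb16+ Il4+ lymphocytes, a group that shared Cd3e (263 and 204 CPM) and Ncr1 (247 and 195 CPM) and was given no cell type name, had 28.0 CPM from 5 UMIs in 47 Ctrl cells and 101 CPM from 81 UMIs in 198 KD cells (1.85, 0.56 to 3.51). In cDC1 it was 21.7 CPM from 10 UMIs and 54.9 CPM from 53 UMIs (1.34, 0.35 to 2.48), and the T cell marker list summed to 43.4 and 80.8 CPM there, with 6 of 10 genes higher and Trbc1, Cd8b1, Cd4 and Cd28 at 0 in at least 1 library. Without cDC1 that held a Cd3e, Cd3d or Cd3g UMI the ratio was 1.12 (0.07 to 2.34). Regulatory T cells had 39.8 and 67.1 CPM (0.75, 0.02 to 1.52). CD4+ T cells (62.3 and 58.2 CPM, -0.10, -0.69 to 0.53) and naive-like T cells (43.1 and 47.1 CPM, 0.13, -0.46 to 0.74) had intervals that held 0. Of the 6 types with at least 50 UMIs, 3 were past 2-fold higher and none lower, where the share of all genes past 2-fold higher was 1.2% in CD8+ T cells, 3.84% in Zbtb16+ Il4+ lymphocytes, 3.42% in cDC1, 1.44% in CD4+ T cells, 1.5% in regulatory T cells and 0.8% in naive-like T cells.

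**Figure D3:**
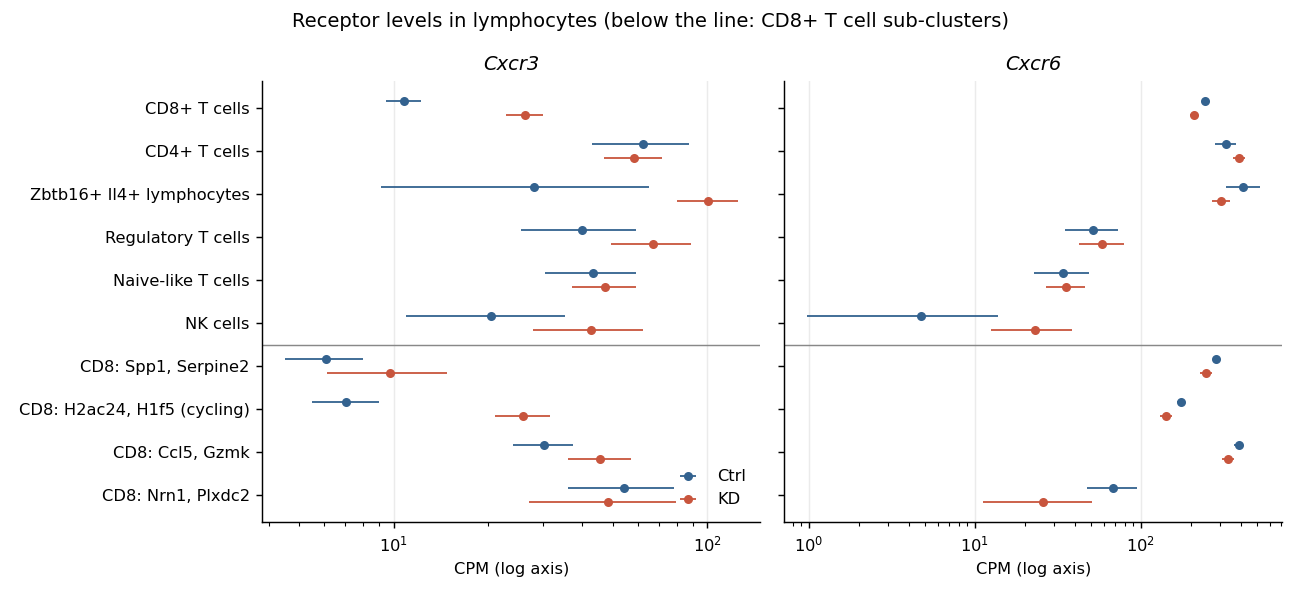
Levels of Cxcr3 and Cxcr6 (x axes, CPM, log axes, 95% Poisson intervals) in 6 lymphocyte types and, below the line, 4 CD8+ T cell sub-clusters named by leading genes, with Ctrl in blue and KD in red. Cxcr3 separates the libraries most in cycling CD8+ T cells (7.08 and 25.9 CPM), whereas Cxcr6 differs little in CD8+ T cells (243 and 208 CPM).

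Cxcr6 was distributed differently. In Ctrl it was 415 CPM in Zbtb16+ Il4+ lymphocytes, 325 in CD4+ T cells and 243 in CD8+ T cells, against 51.5 in regulatory T cells, 33.8 in naive-like T cells and 4.73 in NK cells. The first 2 did not differ beyond their intervals, and neither did regulatory and naive-like T cells. In CD8+ T cells it was 243 CPM in Ctrl (5348 UMIs) and 208 CPM in KD (1672 UMIs), a log2 ratio of -0.22 (-0.30 to -0.14). It was detected in 72.7% and 62.1% of CD8+ T cells, or 32.3% and 27.8% after thinning, against 0.904% and 0.47% of macrophages (0.262% and 0.198% after thinning).

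The 3 largest sub-clusters of CD8+ T cells each had a small difference of this kind. Cxcr6 was 283 and 247 CPM in the Spp1, Serpine2 cells (-0.20, -0.33 to -0.06), 388 and 334 CPM in the Ccl5, Gzmk cells (-0.22, -0.37 to -0.07) and 174 and 142 CPM in the cycling cells (-0.29, -0.44 to -0.15). In the Nrn1, Plxdc2 group it was 67.8 and 25.8 CPM from 35 and 8 UMIs (-1.39, -2.71 to -0.26). Cells with Pdcd1 and Havcr2 UMIs had 247 and 236 CPM (-0.06, -0.16 to 0.04), and cells with Tcf7 and without Havcr2 58.5 and 30.3 CPM (-0.95, -1.63 to -0.30). Cells with no UMI of Pdcd1, Havcr2 or Tcf7 had 259 and 253 CPM (-0.04, -0.33 to 0.25), close to the cells with the exhaustion markers, and the Ccl5, Gzmk cells had the highest Cxcr6 level of the 4 sub-clusters given here together with 30.1 and 45.7 CPM of Cxcr3.

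In CD4+ T cells Cxcr6 was 325 and 391 CPM (0.27, 0.02 to 0.52), and in Zbtb16+ Il4+ lymphocytes 415 and 303 CPM (-0.45, -0.83 to -0.06). NK cells had 3 and 14 UMIs (4.73 and 23.0 CPM, 2.28, 0.44 to 4.72). None of the 5 types with at least 50 UMIs was past 2-fold for Cxcr6, where 2.99% of the genes tested in CD8+ T cells were, in either direction.

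Both receptors were seen in the same CD8+ T cell in 127 of 2573 Ctrl and 76 of 1009 KD cells. Of the Cxcr3-bearing cells 63.5% also held Cxcr6 in Ctrl and 50.7% in KD, against 73.5% and 64.1% of the cells without Cxcr3. After thinning these were 22.4% against 32.5% in Ctrl and 31.4% against 27.7% in KD, from 58 and 35 Cxcr3-bearing cells, so the order did not hold in KD at equal depth.

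Among the receptors' regulators in CD8+ T cells none of 6 passed 2-fold, where 2.99% of all genes tested did in either direction. Tbx21, which encodes T-bet, a known activator of Cxcr3, was 110 and 106 CPM (-0.05) and Stat4 218 and 271 CPM (0.31). Of 9 other homing and residency receptors, 3 were past 2-fold higher: Ccr2 (43.0 and 90.2 CPM, 1.07), Cxcr4 (36.8 and 81.6 CPM, 1.15) and the egress receptor S1pr1 (8.30 and 21.4 CPM, 1.36). The list's median was 0.44 beside -0.03 over all genes tested, of which 1.2% were past 2-fold higher. Ifng, whose product induces Cxcl9 and Cxcl10, was 458 and 357 CPM in CD8+ T cells (-0.36). It was past 2-fold lower in regulatory T cells, at 229 and 62.9 CPM (-1.87, -2.38 to -1.37), and in naive-like T cells, at 95.5 and 43.3 CPM (-1.14, -1.63 to -0.66). It was higher in CD4+ T cells (281 and 364 CPM, 0.37), in NK cells (246 and 347 CPM, 0.50, 0.19 to 0.80) and, past 2-fold, in Zbtb16+ Il4+ lymphocytes (112 and 443 CPM, 1.98, 1.33 to 2.71).

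Over all filtered cells, cell numbers and levels per cell entered the members differently. Cxcl9 was 690 and 282 CPM (-1.29), and with the Ctrl class sizes and the KD levels the log2 ratio was -1.32. Cxcl10 was 681 and 249 CPM (-1.45, levels only -1.53) and Cxcl16 184 and 131 CPM (-0.49, levels only -0.56). Cxcr3 was 6.93 and 11.8 CPM (0.76, levels only 1.02).

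Cxcr6 was the exception. Its total was 98.8 and 49.2 CPM (-1.01), of which the class sizes alone gave -0.75 and the levels alone -0.25. CD8+ T cells, the main holders of Cxcr6, were 26.2% (25.3 to 27.1) of Ctrl and 9.91% (9.33 to 10.5) of KD cells.

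**Figure D4:**
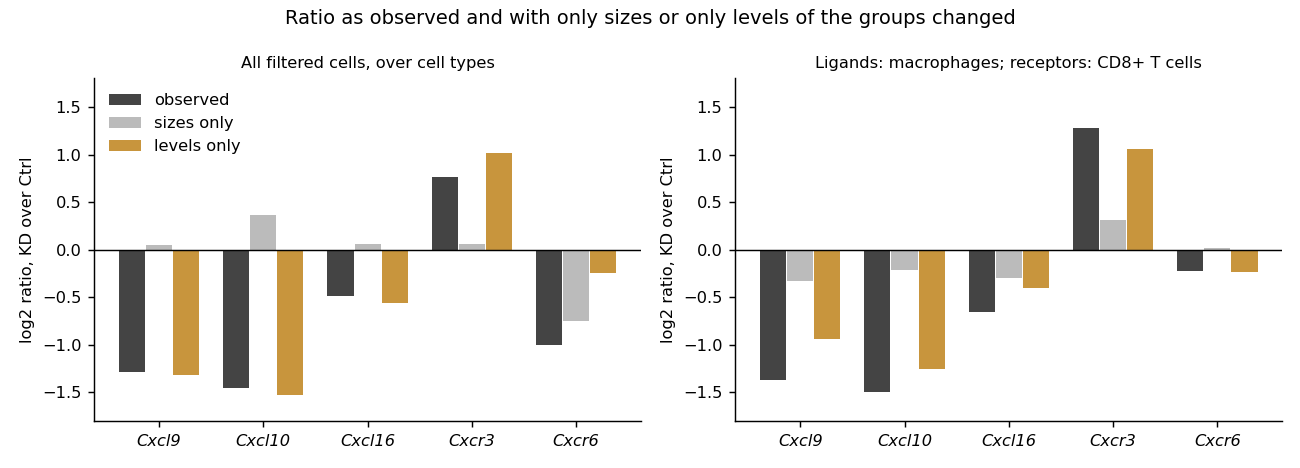
Log2 ratio of KD over Ctrl (y axes) for each member as observed, with only the sizes of the groups changed and with only the levels changed, over cell types in all filtered cells (left) and over sub-clusters of macrophages for ligands and of CD8+ T cells for receptors (right); there is 1 library per group and so no error bar. In all cells only Cxcr6 has a wider gap with sizes alone (-0.75) than with levels alone (-0.25), and in macrophages Cxcl9 has -0.33 with sizes alone and -0.94 with levels alone.

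Genes with the most similar pattern were sought over 53 profiles, each a cell type or sub-cluster in 1 library, among 13435 genes by Pearson's r of log2(CPM + 10). Profiles of 1 library share its free RNA, and a sub-cluster overlaps its own type, so r is given as a description only. Cxcl9 was most like Aif1 (0.90), Slamf8 (0.90) and Nampt (0.88), Cxcl10 most like Cdkn1a (0.87), Cxcl11 (0.85) and Ptgs2 (0.84), and Cxcl16 most like Aif1 (0.90), Bcl2a1a (0.89) and H2-Eb1 (0.89). Cxcr6 followed the T cell genes Cd3e (0.95), Gm39323 (0.95) and Cd3g (0.95), and Cxcr3 was most like Mbnl1 (0.83), Jakmip1 (0.81) and Kbtbd11 (0.81). Between members, r was 0.95 for Cxcl9 and Cxcl16, 0.83 for Cxcl9 and Cxcl10 and 0.62 for Cxcr3 and Cxcr6.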

How the data were processed

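The deposited files held raw UMI counts per gene and cell; per the submitters' processing notes, the authors obtained them in Cell Ranger 7.1.0 against GRCm39, and they were used unnormalized. The filter required 200 genes and allowed 10% mitochondrial UMIs, 30000 UMIs and 6000 genes per cell. Clustering used Seurat 5.3.0 (2000 variable genes without the members and the listed pathway genes, 20 components, resolution 0.5, no integration), and macrophage, lymphoid and dendritic cells were clustered again. Classes were named from at least 3 markers. Clusters holding markers of a foreign lineage were left out as mixed. Likely doublets (Scrublet in scanpy 1.11.5, 771 Ctrl and 830 KD cells) were left out only as an alternative. UMIs were summed per class, with exact Poisson, Clopper-Pearson and conditional binomial 95% intervals. Only the ratio with its interval and the 2-fold call were tested on simulated data. Those data were independent counts without the uneven spread of UMIs between cells. The members and lists were chosen with earlier results of these data known. Named genes were the members, list genes past 2-fold or with extreme ratios, and up to 5 genes per member of like pattern (at least 200 UMIs). Other list genes, such as Tbx21, Stat4, Adam10, Adam17 and Ifng, were named after their values were seen, for their known roles. Alternatives included TMM scaling (edgeR 4.0.16). One listed gene is not reported here.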

Additional observations from a re-analysis of the deposited data

Results flagged for a closer look

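Cxcl10 was lower in KD in 14 of the 15 cell types with at least 50 UMIs, by more than its counting interval, and was higher in CD4+ T cells, with a log2 ratio of 0.68 (0.03 to 1.38) from 24 Ctrl and 111 KD UMIs. Cxcr6 was higher in CD4+ T cells (0.27, 0.02 to 0.52) and lower in CD8+ T cells and Zbtb16+ Il4+ lymphocytes. With 1 library per group, neither difference between cell types was tested. The part of background in the Cxcl10 levels of lymphocytes was not tested either.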

How the results depend on the processing

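No paired analysis was possible because each group had 1 library, and no library could be left out. Over 68 values of the 5 member ratios under other settings none changed direction, and 43 stayed within the main counting interval. The cause of the others was not tested, beyond the changed makeup of the cells compared. Cxcl9 in macrophages was -1.41 thinned to 1500 UMIs, -1.34 without likely doublets, -1.47 with marker gates in place of clusters, -1.15 without sub-clusters of 1 library and, in settings chosen after seeing the data, -1.31 with the Slc8a1 cluster, -1.25 without S100a8- or S100a9-bearing cells and -0.94 with Ctrl sub-cluster sizes (-0.77 at resolution 1.0, -0.95 with the members kept among the clustering genes). Cxcl10 was -1.60 as a mean over cells, -1.30 without sub-clusters of 1 library, -1.41 with the Slc8a1 cluster and -1.25 with Ctrl sizes (-0.98 at resolution 1.0, -1.18 with the members kept). Cxcl16 was -0.59 as a mean over cells, -0.49 without sub-clusters of 1 library, -0.51 without S100a8- or S100a9-bearing cells and -0.40 with Ctrl sizes (-0.34 at resolution 1.0, -0.40 with the members kept). Cxcr3 in CD8+ T cells was 0.99 as a mean over cells and 0.78 thinned, and 0.99 with Ctrl sub-cluster sizes at resolution 1.0, all under 2-fold. Cxcr6 was -0.31 with marker gates. Genes past 2-fold numbered 663 in macrophages (335 at 200 UMIs or more, 1882 at 10 or more) and 357 in CD8+ T cells (105 and 1651). Depth limited Cxcr3 most, with 238 and 211 UMIs in CD8+ T cells.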
